A study of Homo sapiens with 6 samples.

Results

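The 84 genes described here encode the proteins of the cytosolic ribosome. They were chosen by name: protein-coding genes called RPSA, or called RPL, RPS or RPLP with a number, with the X, A or L forms. The rule found 84 of the 32943 genes in the count table, 52 of the large subunit and 32 of the small subunit. Of these, 77 are core proteins (46 large, 31 small), and 7 are paralogues, second genes for a core protein (RPL22L1, RPL26L1, RPS27L, RPL39L, RPL7L1, RPL3L and RPL10L). Of the 84, 83 had enough reads to be tested, and RPL3L, with 0 to 4 reads per library, did not. FAU, RPL36AL and RACK1, which also make ribosomal proteins, have other kinds of names and are given at the end.

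Human cells labelled AGS (a line from a gastric adenocarcinoma) were transfected by Lipofectamine with a plasmid that drives 3xFlag-tagged IGF2BP3 (pcDNA3.1 backbone, 3 libraries) or with a control plasmid (3 libraries). Both were harvested 48 h later. IGF2BP3 binds mRNAs and is known to affect their stability and translation. The labels do not say whether the 3 libraries of a group are separate cultures, so the p-values reflect only how much these libraries vary, and that variation may be technical. Poly(A) RNA was sequenced with a strand-marking kit.

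The cytosolic ribosome has a small subunit that reads the mRNA and a large subunit that joins amino acids. Its proteins are needed in near-equal amounts, since each is present once per ribosome apart from the stalk proteins. The mRNAs of most of them start with a cytosine followed by a run of pyrimidines, the 5′ terminal oligopyrimidine (TOP) motif, through which growth signals passing by mTOR and the RNA-binding protein LARP1 control their translation and stability. Polyadenylated RNA levels therefore do not report how much of each protein is made.

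To show the motif, the 30 bases around the annotated start of the first transcribed base are given for some of the genes named below. They come from RefSeq on GRCh38.p14, 15 bases before the start and 15 from it. Capitals mark the run of pyrimidines that begins at the start, printed where that base is C and the next 4 are C or T. The first 5 are a core gene of each subunit, the stalk protein RPLP2 and 2 core genes that have a paralogue, and the next 5 are paralogues and the 1 core gene lower under IGF2BP3. RPL19 and RPS26, core genes higher under IGF2BP3, are not printed and have no run of this kind at an annotated start.

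RPS12, chr6:132814554-132814583, plus strand: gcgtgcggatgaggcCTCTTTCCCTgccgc
RPLP2, chr11:809952-809981, plus strand: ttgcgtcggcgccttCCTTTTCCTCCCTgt
RPL24, chr3:101686704-101686733, minus strand: ttcccatgattctctCTTTCTTTTCgccat
RPL22, chr1:6199581-6199610, minus strand: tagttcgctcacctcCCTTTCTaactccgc
RPS27, chr1:153990747-153990776, plus strand: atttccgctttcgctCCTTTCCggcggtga
RPL22L1, chr3:170870181-170870210, minus strand: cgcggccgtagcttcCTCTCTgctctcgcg
RPS27L, chr15:63157463-63157492, minus strand: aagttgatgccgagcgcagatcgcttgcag
RPL26L1, chr5:172958714-172958743, plus strand: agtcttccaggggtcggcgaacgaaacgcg
RPL7L1, chr6:42879601-42879630, plus strand: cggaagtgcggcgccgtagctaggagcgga
RPL3, chr22:39319609-39319638, minus strand: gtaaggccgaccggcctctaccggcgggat

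A start of this kind, read on the transcribed strand only, was found at 47 of the 67 members with a RefSeq window (70.1%), against 5.14% of the 27305 genes with a window. The share was 74.2% of 62 core genes, and 1 of 5 paralogues had it, namely RPL22L1. A match is a description of these letters, not a measured start. Where RefSeq gives more than 1 start, as for RPL26L1, the first is printed and a gene counts if any start matches.

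Library totals ran from 33555366 to 37633587 reads. IGF2BP3 was measured at 90.6, 102 and 100.2 CPM (reads scaled to library size by the TMM method) in the controls and at 511, 573 and 664 CPM with its plasmid, a log2 fold change of 2.58 ± 0.08 (standard error; adjusted p = 1.28e-08, edgeR quasi-likelihood test, Benjamini-Hochberg). All 6 epithelial markers reached 1 CPM. Of 8 gastric markers with a row, 3 reached 1 CPM and TFF1, TFF2, MUC5AC, MUC6 and CLDN18 did not. All 12 hepatocyte markers reached 1 CPM, with summed levels of 4237 to 4478 CPM in controls and 2525 to 2827 CPM under IGF2BP3, which goes against the gastric label. The 6 fibroblast markers summed to 210.2 to 220.4 CPM and to 121 to 135 CPM, and the 6 leukocyte markers, with CD14 and LYZ the 2 above 1 CPM, to 76.7 to 83.4 CPM and to 28.2 to 38.3 CPM. The part of these differences in the results below was not tested. In bulk RNA, a change in how many cells carry an mRNA and a change in its level per cell cannot be told apart.

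Ribosomal protein mRNAs moved little. Of the 83 tested, 18 were higher and 2 lower under IGF2BP3 (adjusted p under 0.05, edgeR quasi-likelihood test), and 63 did not pass. Of all 17747 genes tested, 37.7% were called, 18.5% higher and 19.2% lower, so the members' share higher (21.7%) lay near the background, and their share lower (2.41%) below it. Among the 4197 genes with a mean of at least 50 CPM, a level most members exceed, 32.1% were higher and 22.5% lower. The sizes were small: the median log2 fold change of the members was 0.05, against −0.01 over all genes tested and 0.04 over genes of at least 50 CPM. None of the 77 core genes differed by 1.2-fold or more, against 42.9% of all genes tested and 26.8% of those of at least 50 CPM. Of the 77, 56 lay within 0.1 log2 units of no difference, against 4344 of the 17747 genes tested and 1412 of the 4197 of at least 50 CPM. Of the 83 members, 60 (72.3%) were above 0, against 48.8% of all genes tested and 57.6% of genes of at least 50 CPM. That number ran from 44 with upper quartile scaling to 74 without control replicate 1 and overexpression replicate 3 together. It was 52 without overexpression replicate 1 and 71 without overexpression replicate 3.

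**Figure D1:**
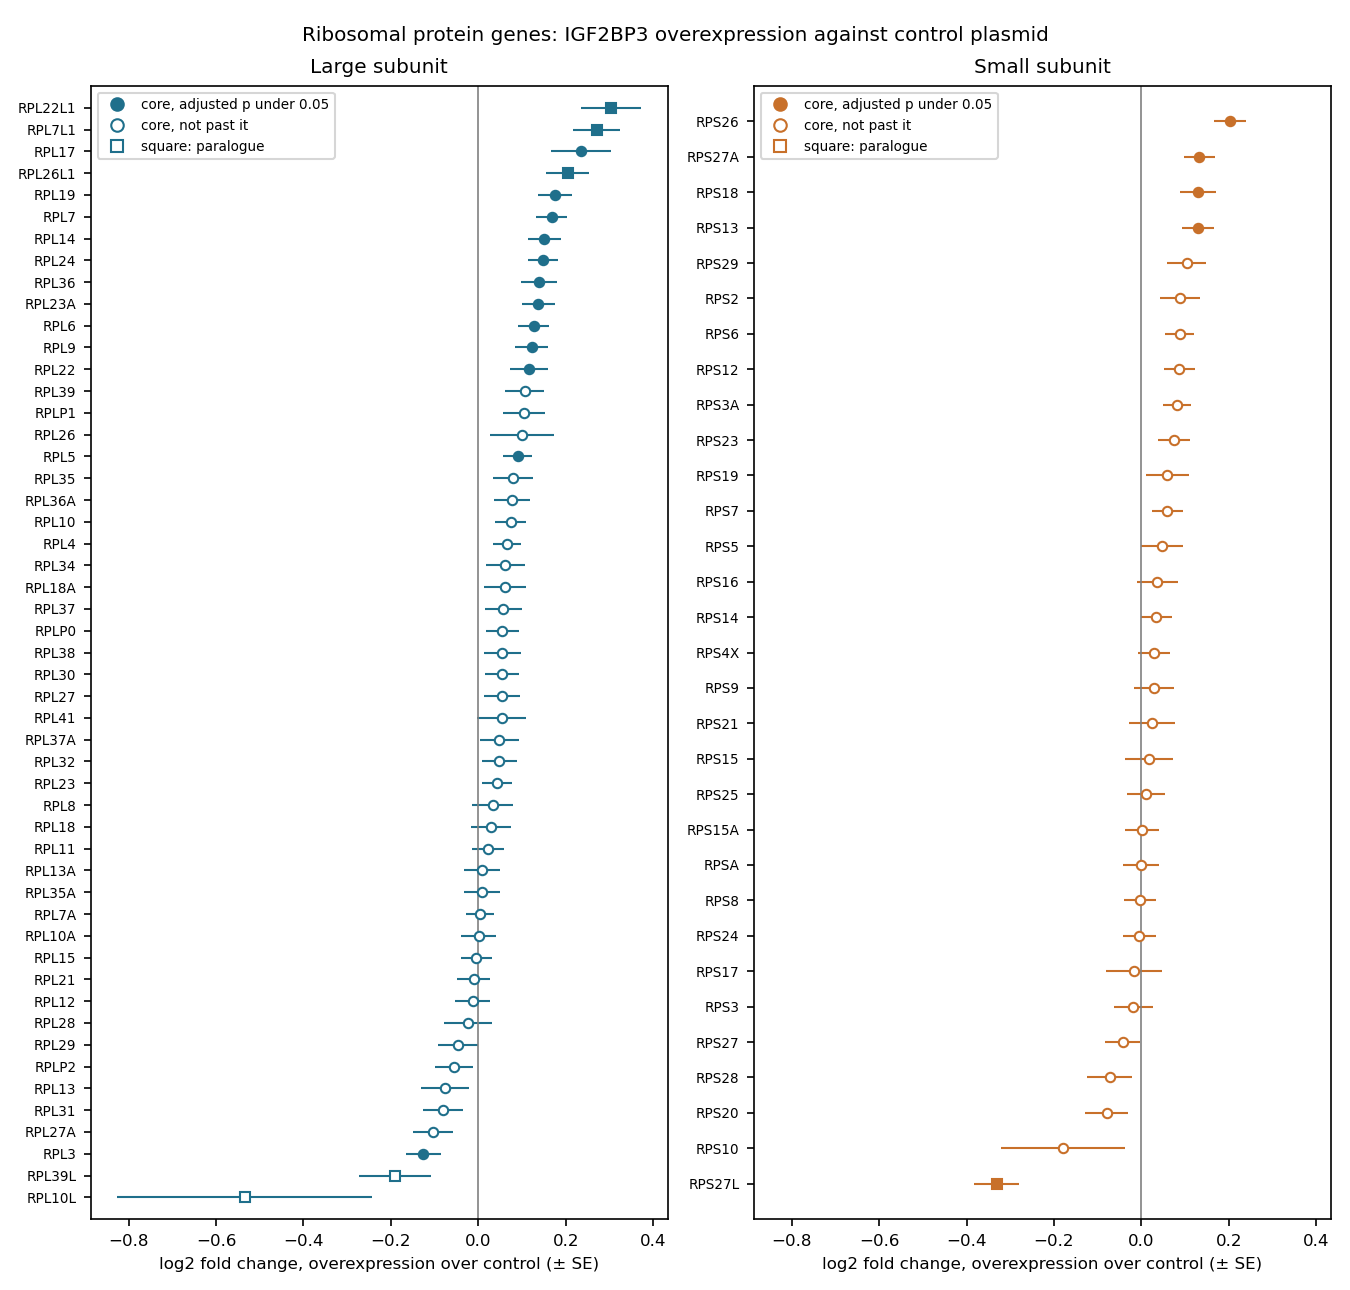
Log2 fold change, IGF2BP3 over control, of the tested genes reported by name, with its standard error, in 1 panel per subunit. Squares are paralogues, circles core genes, and filled symbols passed the threshold. Core genes lie between −0.18 and 0.24, while RPL22L1 (0.30), RPL7L1 (0.27), RPS27L (−0.33), RPL39L (−0.19) and RPL10L (−0.53), all paralogues, lie outside that range.

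The number of calls moved with single libraries. It was 43 higher and 2 lower without overexpression replicate 3, where 15.7% of all genes were higher and 15.5% lower, but 10 higher without control replicate 3 and 10 without overexpression replicate 1. With upper quartile scaling, 8 were higher and 4 lower, with 14.5% and 22.3% of all genes.

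The large subunit had 14 members higher and 1 lower of 51 (27.5% and 1.96%). The small subunit had 4 higher and 1 lower of 32 (12.5% and 3.1%). Of all genes tested, 18.5% were higher and 19.2% lower, and of those of at least 50 CPM 32.1% and 22.5%. The median log2 fold changes of the subunits were 0.05 and 0.03. Whether the subunits differ in these counts was not tested. Without overexpression replicate 3, 28 of 51 and 15 of 32 were higher, where 15.7% of all genes were. Without control replicate 3 or overexpression replicate 1, 10 of all members were higher. In summed reads the subunits kept their proportion. The large subunit had 1.56, 1.54 and 1.54 reads per small subunit read in the controls and 1.55, 1.55 and 1.55 under IGF2BP3, and the ranges overlapped.

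The members together took 9.83%, 9.71% and 9.63% of the reads in the controls and 10.3%, 10.2% and 9.62% under IGF2BP3. The means were 9.72% ± 0.1001 (SD, n = 3) and 10.04% ± 0.369 (SD, n = 3), and the groups overlapped, with overexpression replicate 3 below all controls. The reads of the mitochondrial genome were lower under IGF2BP3 with no overlap, at 6.30% ± 0.213 of the total in the controls and 5.20% ± 0.143 (SD, n = 3 each). Without them, the difference between the group means of the members' share was 0.213 percentage points in place of 0.316.

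Overexpression replicate 3 stood apart from the other 2 libraries of its group for these genes. It was the lowest of the 3 for 71 of 77 core genes (92.2%), in 43 of 46 of the large and 28 of 31 of the small subunit. The same library was lowest of its group for 37.9% of all genes tested and 46.0% of genes of at least 50 CPM. Control replicate 1 was lowest of its group for 51.7% of genes of at least 50 CPM, but for 25 of the 77 core genes. By a chi-square per gene over the genes tested, control replicate 1 stood at 9.30 and 8.74 from the other controls. Overexpression replicate 3 stood at 7.58 and 7.99 from the other 2 of its group. In overexpression replicate 3, core genes were a median 0.12 log2 units below the mean of the other 2 libraries. Against the control mean, the median core gene of the large subunit was at 0.10, 0.08 and −0.03 log2 units in overexpression replicates 1, 2 and 3, and that of the small subunit at 0.08, 0.07 and −0.07. The medians of the control libraries lay between −0.01 and 0.01.

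**Figure D2:**
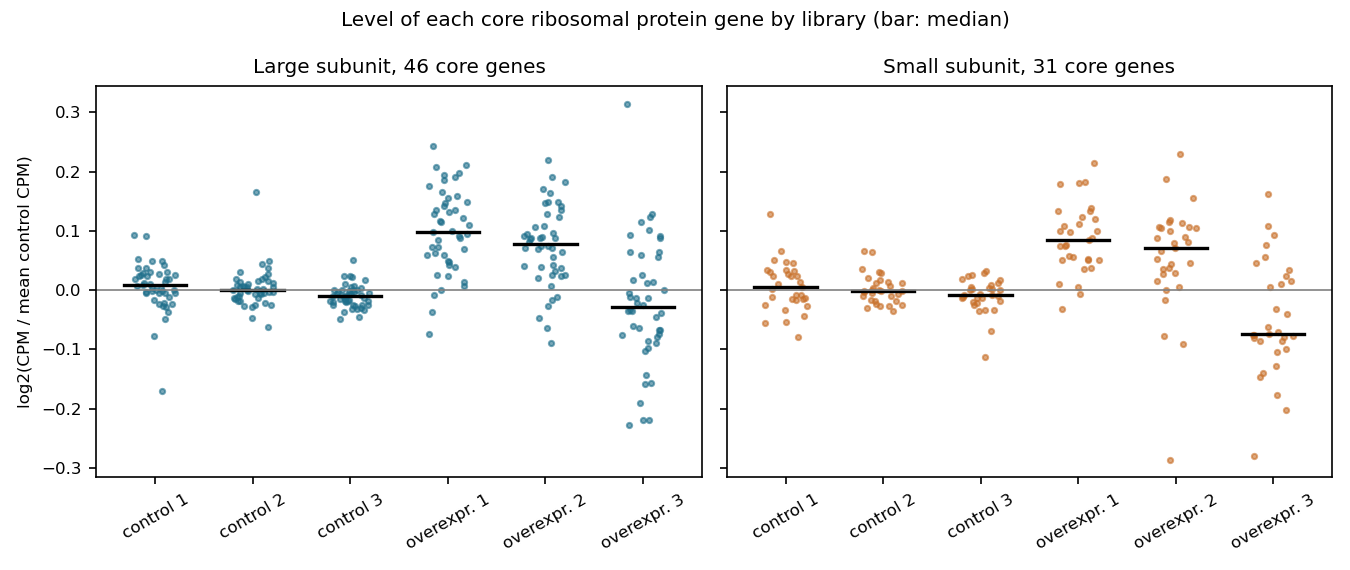
Log2 level of each core ribosomal protein gene in each library, relative to its control mean, for the large and the small subunit. In overexpression replicates 1 and 2, 72 and 66 of 77 core genes lie above the control mean, and in replicate 3, 27 do.

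The shift of that library went with the base composition of the mRNA. Across the 77 core genes, the share of G and C correlated with the difference between replicate 3 and the other 2 overexpression libraries (Spearman's rho −0.58, Pearson's r −0.56), so members richer in G and C tended to be lower there. The same relation held across the 4188 genes of at least 50 CPM with a known composition (rho −0.62, r −0.62). It was weaker across all 17504 genes tested with a known composition (rho −0.35, r −0.22). GC content correlated less with the log2 fold change over all libraries, with rho −0.31 and r −0.27 in the core genes and −0.22 and −0.21 in genes of at least 50 CPM. Genes share libraries and are not independent, so these are descriptions. With a length and GC trend removed from every library, 44 members were higher and 1 lower, where 25.7% and 17.1% of all genes were. The median of the members was then 0.10 in place of 0.05, and that of all genes 0.04 in place of −0.01.

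**Figure D3:**
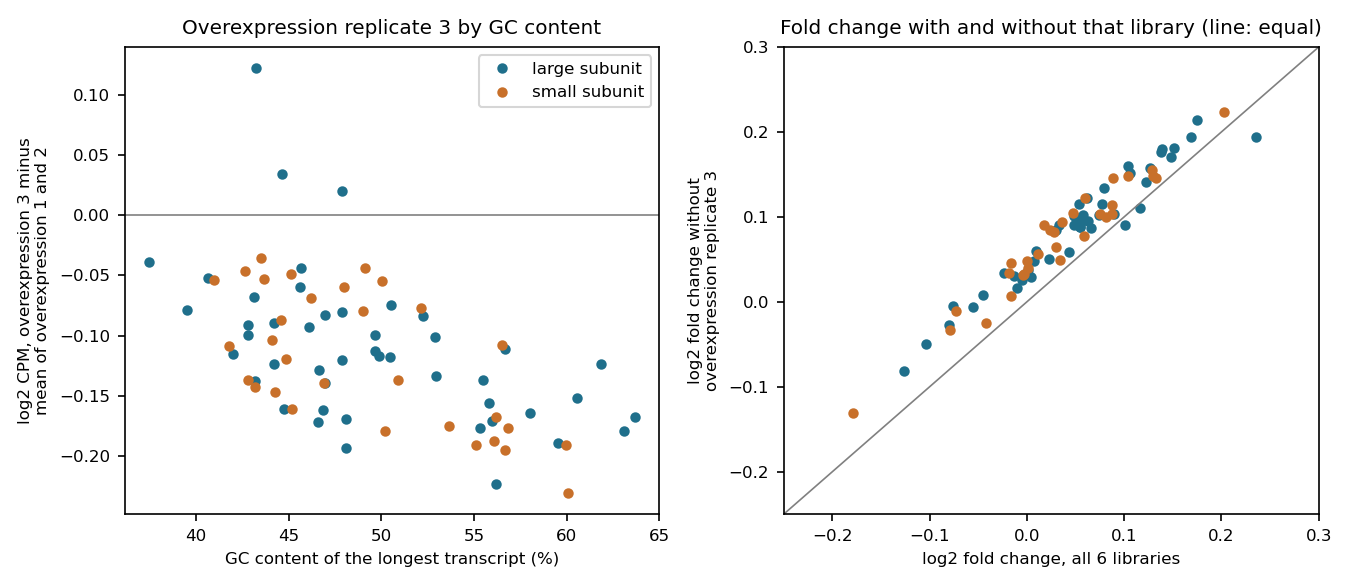
Left, GC content of each core gene (percent of its longest transcript) against the log2 CPM of overexpression replicate 3 minus the mean of the other 2 overexpression libraries, with large and small subunit in 2 colours. Points fall from left to right, with rho −0.58 over 77 genes. Right, the log2 fold change of each core gene over all 6 libraries against that without replicate 3, with a line of equality that most points lie above.

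In the large subunit, the members with the biggest increase other than paralogues were RPL17 and RPL19, whose proteins lie at the exit tunnel through which the new protein leaves. RPL19 (ENSG00000108298.12, chr17:39200283-39204732) was at 1156, 1164 and 1147 CPM in the controls and at 1335, 1345 and 1233 CPM under IGF2BP3. All 3 overexpression libraries were above all controls. Its log2 fold change was 0.17 ± 0.04 (adjusted p = 0.00386, edgeR). RPL17 had 0.24 ± 0.07, but its row holds few of the reads of its locus, as described below. Of the 8 exit tunnel genes, 3 (37.5%) were higher (RPL17, RPL19 and RPL23A) and 0 lower, with a median of 0.10. Of all genes tested, 18.5% were higher and 19.2% lower, and of those of at least 50 CPM 32.1% and 22.5%. None of the 8 was lower at an unadjusted p under 0.05, nor in DESeq2 or limma-voom. Without overexpression replicate 3, 5 were higher, where 15.7% of all genes were.

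RPL7, RPL24, RPL14 and RPL36 rose by log2 fold changes of 0.17, 0.15, 0.15 and 0.14, and RPL23A, RPL6, RPL9 and RPL22 by 0.14, 0.13, 0.12 and 0.12. These genes were named after their values were seen. RPL24, which forms a bridge to the small subunit, was at 1216, 1215 and 1228 CPM in the controls and at 1392, 1352 and 1309 CPM under IGF2BP3, so that the groups did not overlap. RPL22, at 0.12 ± 0.04, passed narrowly (adjusted p = 0.0491, edgeR) and did not pass in DESeq2. RPL7, RPL24 and RPL14 kept their call when any 1 library was left out. RPL22 lost its call without control replicates 1, 2 or 3 or overexpression replicates 1 or 3, RPL9 without control replicates 1 or 3 or overexpression replicates 1 or 2, and RPL36 without control replicate 2 or overexpression replicates 1 or 2. RPL23A lost it without control replicate 3 or overexpression replicates 1 or 2, and RPL6 without control replicate 3 or overexpression replicate 1. With upper quartile scaling, RPL14, RPL22, RPL9, RPL36, RPL23A and RPL6 lost their calls.

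RPL3 was the 1 core gene lower under IGF2BP3. It makes a protein near the peptidyl transferase centre of the large subunit (ENSG00000100316.16, chr22:39312882-39320389, minus strand). Its levels were 1779.8, 1799 and 1776 CPM in the controls and 1696, 1677 and 1534 CPM under IGF2BP3. Every overexpression library was below every control, with replicate 3 lowest. The log2 fold change was −0.13 ± 0.04 (adjusted p = 0.0267, edgeR). The call was not made without control replicate 2 (adjusted p = 0.0875) or control replicate 3 (adjusted p = 0.0739), nor with the length and GC trend removed, where the value was −0.02 (adjusted p = 0.62), nor in limma on log2 FPKM plus 1 (adjusted p = 0.198) or plus 0.1 (adjusted p = 0.202).

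The P stalk is the flexible arm of the large subunit that recruits translation factors, built from RPLP0, RPLP1 and RPLP2 and anchored beside RPL12. None of the 4 passed in edgeR, none did in DESeq2 or limma-voom, and none had an unadjusted p under 0.05. RPLP1 was at 1140.1, 1099 and 1068 CPM against 1221, 1241 and 1093 CPM, a log2 fold change of 0.10 ± 0.05 (adjusted p = 0.108, edgeR). RPLP0, the most abundant, was at 2782, 2746 and 2711 CPM against 2940.2, 2921 and 2700.2 CPM, 0.06 ± 0.04. In both genes replicate 3 was the lowest library of its group. RPLP2 was at 989, 977 and 963 CPM against 985, 958 and 875 CPM, −0.06 ± 0.04. RPL12 was at 1212, 1215 and 1220.3 CPM against 1249.8, 1233 and 1132 CPM, −0.01 ± 0.04. In these too replicate 3 was lowest. RPLP0 and RPLP1 passed without that library (adjusted p = 0.00774 and 0.00358, edgeR). With the length and GC trend removed, RPLP0, RPLP1 and RPLP2 passed as higher (adjusted p = 0.0211, 0.018 and 0.00468, edgeR), so that RPLP2 turned direction, and RPLP1 passed also in limma on log2 FPKM plus 1 (adjusted p = 0.0334).

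RPL5 and RPL11 carry 5S ribosomal RNA into the large subunit, and, when free, bind MDM2. RPL5 was at 1395, 1451 and 1424 CPM and at 1544, 1513 and 1488 CPM, with no overlap. Its log2 fold change, 0.09 ± 0.03, was at the threshold (adjusted p = 0.0499, edgeR) and did not pass in DESeq2 (adjusted p = 0.102) or without any 1 of control replicates 1, 2 and 3 and overexpression replicates 1 and 2. RPL11 was at 1324, 1395 and 1359 CPM and at 1417, 1398 and 1329 CPM, with overlap, a log2 fold change of 0.02 ± 0.04 (adjusted p = 0.657, edgeR).

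In the small subunit, RPS26 had the largest increase (ENSG00000197728.11, chr12:56041351-56044697). Its protein lies where the mRNA leaves the ribosome. RPS26 was at 479.7, 466 and 469.7 CPM in the controls and at 547, 554 and 528 CPM under IGF2BP3, 0.20 ± 0.04 (adjusted p = 9.73e-04, edgeR). The groups stood well apart. RPS27A, RPS18 and RPS13 rose by 0.13 each on the log2 scale. RPS27A encodes ubiquitin fused to a small subunit protein. RPS27A kept its call when any 1 library was left out. RPS13 lost its call without control replicate 3 or overexpression replicate 2, and RPS18 without control replicates 1 or 3 or overexpression replicates 1 or 2. With upper quartile scaling, RPS27A, RPS13 and RPS18 lost their calls. No core gene of the small subunit was lower, at an unadjusted p under 0.05 either, nor in DESeq2 or limma-voom. The head of the subunit had 2 higher of 14 (14.3%) and the body 2 higher of 17 (11.8%), both with a median of 0.03. Of all genes tested, 18.5% were higher and 19.2% lower, and of those of at least 50 CPM 32.1% and 22.5%. Without overexpression replicate 3 the head had 8 of 14 and the body 7 of 17 higher, where 15.7% of all genes were.

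RPSA, on the body near the mRNA exit, was the most read member at 3396, 3393 and 3359.9 CPM in the controls. It was at 3522, 3468 and 3156 CPM under IGF2BP3, overlapping on both sides, for a log2 fold change of −3.6e-04 ± 0.04 (adjusted p = 0.996, edgeR). RPS12, a head protein, was at 1664, 1751 and 1728 CPM and at 1848, 1860.4 and 1754 CPM. All 3 overexpression libraries were above the controls, but its 0.09 ± 0.04 did not pass (adjusted p = 0.0765, edgeR), and did without overexpression replicate 3 (adjusted p = 0.00758) and with the length and GC trend removed (adjusted p = 0.00404).

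RPS2, RPL41, RPL7A and RPL13A are, with RPS12, among the members with the highest levels per length, and none passed. RPS2, at the mRNA entry, was at 3286, 3125 and 3122 CPM in the controls and at 3486, 3541 and 3108 CPM under IGF2BP3, a log2 fold change of 0.09 ± 0.05. Its replicate 3 was below every control and the other 2 overexpression libraries above. RPL41, the shortest ribosomal protein, was at 1480.3, 1344 and 1344 CPM and at 1550.4, 1459 and 1315 CPM, 0.05 ± 0.06. RPL7A was at 2610.4, 2642 and 2647 CPM and at 2676, 2693 and 2550.1 CPM, 0.00 ± 0.03, and RPL13A at 3056, 3075 and 3042 CPM and at 3193, 3177 and 2859 CPM, 0.01 ± 0.04. Replicate 3 was again below all controls for these 3. RPS2 and RPL13A passed without overexpression replicate 3 (adjusted p = 0.00251 and 0.0413, edgeR), and RPS2, RPL41 and RPL13A with the length and GC trend removed (adjusted p = 3.7e-05, 0.00975 and 0.0114). Across all members, 24 had every overexpression library above every control and 5 had every one below. Of all genes tested, 25.3% and 25.4% did.

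Levels between genes can be compared only per length, which the deposited FPKM values (fragments scaled to gene length and library size) give. High means in the small subunit were those of RPS12 at 2348 FPKM and RPS2 at 1165 FPKM. The highest in the large subunit were RPL41 at 1083 FPKM, RPL7A at 999.5 FPKM and RPL13A at 806 FPKM. The levels of proteins needed in equal numbers thus spanned a wide range on this scale, and RPS29 was at 35.3 FPKM. The lengths behind FPKM differed between these genes, with 0.754 CPM per FPKM for RPS12 and 11.6 for RPS29, so the order rests on the gene models used.

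The largest fold changes were those of paralogues. RPL22L1, RPL7L1 and RPL26L1 were higher, RPS27L was lower, and RPL39L and RPL10L did not pass. That made 3 higher and 1 lower of 6 tested (50% and 16.7%), beside 18.5% and 19.2% of all genes. Of the 4 members that differed by 1.2-fold or more, all were paralogues: RPL22L1, RPL7L1 and RPS27L passed the test and RPL10L did not.

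RPL22L1 (ENSG00000163584.18, chr3:170864875-170870483, minus strand) can take the place of RPL22 in the ribosome and is also known to act on splicing. It was at 28.3, 32.8 and 33.1 CPM in the controls and at 39.8, 37.1 and 39.3 CPM under IGF2BP3. All overexpression libraries lay above all controls, with a log2 fold change of 0.30 ± 0.07 (adjusted p = 0.00456, edgeR). RPL7L1 (chr6:42879618-42889925), a nucleolar relative of RPL7, was at 211, 187 and 184 CPM and at 229, 231 and 241 CPM, with no overlap. Its log2 fold change was 0.27 ± 0.05 (adjusted p = 0.00182, edgeR). RPL26L1 (chr5:172958729-172969771) was at 57.4, 59.7 and 60.8 CPM and at 68.3, 69.6 and 67.1 CPM, 0.20 ± 0.05 (adjusted p = 0.00586, edgeR). Its groups did not overlap either.

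RPS27L, a p53-inducible relative of RPS27, fell most among the members that passed (ENSG00000185088.14, chr15:63125872-63158021, minus strand). It was at 162, 166 and 175 CPM in the controls and at 138, 137 and 125 CPM under IGF2BP3. Every overexpression library was below every control. The log2 fold change was −0.33 ± 0.05 (adjusted p = 3.8e-04, edgeR). RPL39L, a relative of RPL39 best known in male germ cells, was at 18.02, 16.2 and 17.2 CPM and at 15.9, 15.6 and 13.6 CPM. Its groups did not overlap, but the log2 fold change of −0.19 ± 0.08 did not pass (adjusted p = 0.0861, edgeR), and did with upper quartile scaling (adjusted p = 0.0453). RPL10L, another germ cell gene, was under 1 CPM in every library, at 0.703, 0.717 and 0.721 CPM and at 0.375, 0.676 and 0.430 CPM. Its −0.53 ± 0.29 did not pass (adjusted p = 0.171, edgeR).

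The ratio of a paralogue to its core gene needs no scaling between libraries. RPL22L1 stood at 19.6, 21.9 and 22.7 reads per 100 of RPL22 in the controls and at 24.5, 24.1 and 24.6 under IGF2BP3. RPS27L stood at 21.2, 21.3 and 23.1 per 100 of RPS27 and at 17.6, 19.0 and 17.2. RPL39L stood at 1.94, 1.78 and 1.91 per 100 of RPL39 and at 1.52, 1.59 and 1.47. None of these 3 ratios overlapped between groups, with differences of 0.19, −0.29 and −0.30 in mean log2 ratio. Each had p = 0.1 in a two-sided exact permutation test over libraries, the smallest that 3 against 3 allows (0.15 after adjustment over 6 pairs). RPL10L over RPL10 differed by −0.65 with the same p. RPL7L1 over RPL7 overlapped, with a difference of 0.11 (p = 0.3, exact permutation test). RPL26L1 over the RPL26 row also overlapped, with a difference of 0.10 (p = 0.3, exact permutation test), but that row holds only 4.22% of the reads of its locus, as described below. Per 100 reads of the whole RPL26 locus, a ratio added after seeing the data, RPL26L1 stood at 4.001, 4.25 and 4.31 in the controls and at 4.41, 4.58 and 4.63 under IGF2BP3. On that base the groups did not overlap, with a difference of 0.12 (p = 0.1, exact permutation test, 0.12 after adjustment over the 6 pairs).

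**Figure D4:**
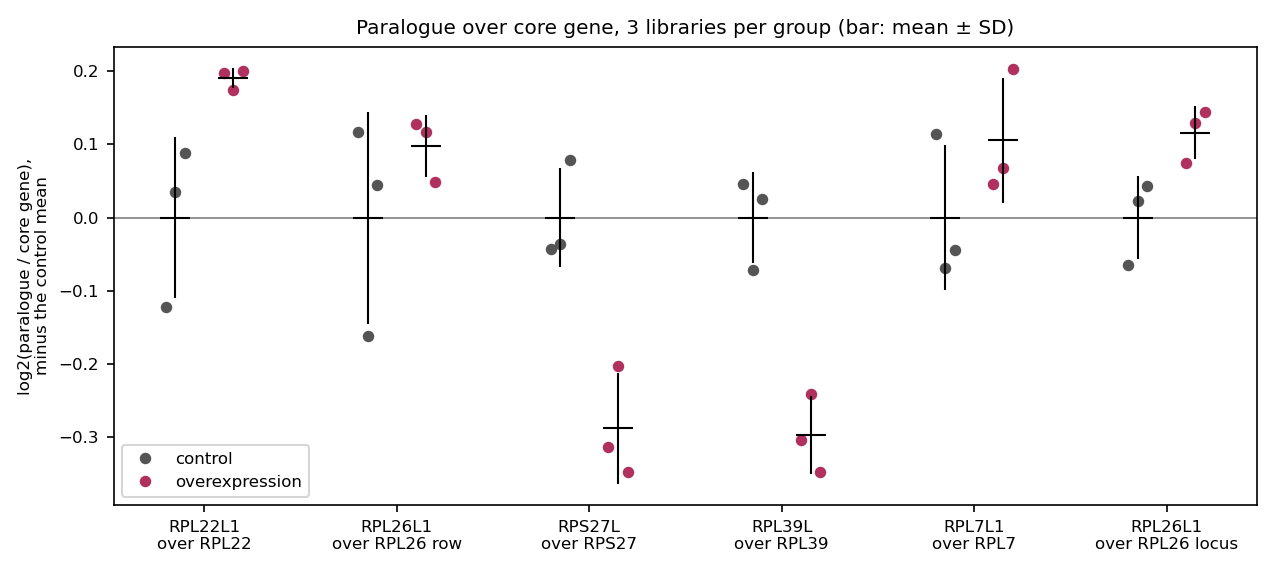
Log2 ratio of each paralogue to its core gene in each library, minus the control mean of that pair, for 5 pairs, with RPL26L1 over both the RPL26 row and its whole locus. Points are libraries, and the bars give the mean and SD of each group (n = 3). RPL22L1 lies higher and RPS27L and RPL39L lower in every IGF2BP3 library than in any control. RPL7L1 overlaps, and RPL26L1 overlaps over the RPL26 row but not over the locus.

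For 3 core genes the row named after the gene held few of the reads of its locus, since a readthrough gene annotated over the same exons held the rest. RPS10 had 115, 113 and 111 reads in the controls and 121, 94 and 99 under IGF2BP3, while the row RPS10-NUDT3 had 30484, 28500 and 30237 reads and 32504, 31014 and 29128. The RPS10 row thus held 0.358% of its locus. The RPL17 row held 2.39% of its locus, beside RPL17-C18orf32, and the RPL26 row 4.22%, beside the readthrough gene RP11-849F2.7. RPL36A held 98.97% of its own.

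Values summed over both rows were nearer to 0. RPL17 had 675, 680 and 707 reads against 868, 769 and 909, the log2 fold change of 0.24 ± 0.07 given above (adjusted p = 0.0181, edgeR). The whole RPL17 locus was at 0.09 ± 0.03 (adjusted p = 0.0558, edgeR) and did not pass. On its own row, RPL17 did not pass without control replicate 3 (adjusted p = 0.057), overexpression replicate 1 (adjusted p = 0.0504) or overexpression replicate 3 (adjusted p = 0.0552, all edgeR). RPS10 was at −0.18 ± 0.14 on its row and at −0.01 ± 0.04 over the locus. The RPL26 locus was at 0.09 ± 0.03 (adjusted p = 0.0630, edgeR). With the rows of RPS10 and RPL17 set aside, core genes ran from −0.13 for RPL3 to 0.20 for RPS26.

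**Figure D5:**
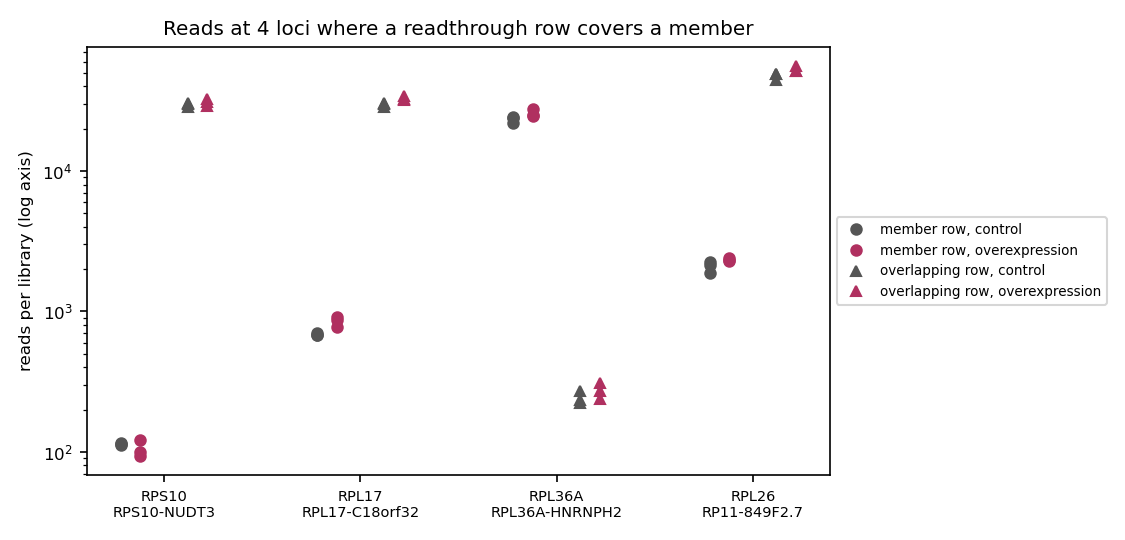
Reads of the gene's own row and of the readthrough row at the same locus in each library, on a log axis, for RPS10, RPL17, RPL36A and RPL26. The readthrough row holds nearly all reads at RPS10, RPL17 and RPL26, and few at RPL36A.

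Ribosomal protein genes also have many processed pseudogenes, near-identical copies to which reads can be assigned. Rows named as RPL9 pseudogenes held 56.3% as many reads as RPL9 itself, those of RPS10 52.1% of its few reads, those of RPS28 35.8% and those of RPS2 14.2%, so the values of these 4 are uncertain. RPL10 shares 52.7% of its exonic bases with genes on the opposite strand, and whether strand was used in counting is not stated in the labels.

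Diamond-Blackfan anaemia, a failure of red cell production, arises from loss of 1 copy of a ribosomal protein gene. Of 19 such genes, 2 (10.5%) were higher, RPS26 and RPL5, and 0 lower, with a median of 0.02. None of the 19 was lower at an unadjusted p under 0.05, nor in DESeq2 or limma-voom. Of all genes, 18.5% were higher and 19.2% lower, and of those of at least 50 CPM 32.1% and 22.5%. Without overexpression replicate 3, 7 of the 19 were higher, where 15.7% of all genes were, and RPL5 is at the threshold as given above. The TOP counts that follow stand beside the same shares, 18.5% higher and 19.2% lower of all genes, and 32.1% and 22.5% at 50 CPM or more. Members with a TOP start had 8 higher and 0 lower of 47, with a median of 0.05. Those with a window and no TOP start had 7 higher and 2 lower of 20, with a median of 0.06. In this latter set, the paralogues RPL7L1 and RPL26L1 were higher, RPS27L lower, and RPL10L did not pass. The RPL17 row, which holds few of the reads of its locus, was also among those higher there. The paralogue with a TOP start, RPL22L1, was higher. Whether members with and without a TOP start differ, with paralogues set aside or not, was not tested. Without overexpression replicate 3, 23 of 47 and 11 of 20 were higher, where 15.7% of all genes were. Other leave-outs lowered the count of all members higher, as given above.

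FAU, RPL36AL and RACK1, ribosomal proteins under other names, did not pass in edgeR, DESeq2 or limma-voom, and none had an unadjusted p under 0.05. FAU was higher without overexpression replicate 3. Of 17 other mRNAs known for a TOP start, which encode translation factors and related proteins, 7 were higher and 1 lower (41.2% and 5.88%), with a median of 0.06. Among genes of at least 50 CPM, 32.1% were higher and 22.5% lower. VIM, the intermediate filament vimentin, went from 1042 ± 12.5 to 1334 ± 25.3 CPM (SD, n = 3 each), and EIF3E, a subunit of initiation factor 3, from 422 ± 13.1 to 505 ± 7.45 CPM. TPT1, the tumour protein TCTP, went the other way, from 1787 ± 2.29 to 1595 ± 74.3 CPM.

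Of 15 genes that control TOP mRNAs, 5 were higher and 2 lower (33.3% and 13.3%), near the 32.1% higher among genes of at least 50 CPM, with a median of 0.08. CNBP, which binds TOP mRNAs, went from 336 ± 7.86 to 447 ± 12.7 CPM, and RPTOR, the mTOR complex 1 subunit raptor, from 22.4 ± 0.545 to 28.2 ± 1.34 CPM. EIF4EBP2, a translation repressor that mTOR inactivates, went from 153 ± 8.15 to 122 ± 1.77 CPM, and TSC2, an inhibitor upstream of mTOR, from 63.0 ± 3.20 to 54.3 ± 2.23 CPM. EIF4EBP1, a repressor related to EIF4EBP2, went the other way, from 154 ± 1.30 to 184 ± 21.1 CPM (adjusted p = 0.0118, edgeR). LARP1 and LARP4 were also higher, with log2 fold changes of 0.24 and 0.23. MTOR itself did not pass (−0.01). Whether mTOR activity differed was not tested.

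Most chaperones and import receptors that escort new ribosomal proteins were higher. Of 14, 12 (85.7%) were higher and 0 lower, and the median was 0.22. Of all genes tested, 18.5% were higher and 19.2% lower, and of those of at least 50 CPM 32.1% and 22.5%. The 12 and the 0 were the same in DESeq2, in limma-voom and at an unadjusted p under 0.05, and NAP1L1 and IPO9 did not pass. IPO9 had every overexpression library below every control, as 25.4% of all genes tested did. Without overexpression replicate 3, 11 were higher, where 15.7% of all genes were. BCCIP, an RPL23 chaperone, was at 97.1, 105 and 107 CPM in the controls and at 129, 137 and 134 CPM under IGF2BP3, 0.37 ± 0.05 on the log2 scale (adjusted p = 1.59e-04, edgeR). NPM1, the nucleolar protein nucleophosmin, was at 1893, 1971 and 1948 CPM and at 2254, 2267 and 2294 CPM, 0.23 ± 0.03. In both genes all 3 overexpression libraries, replicate 3 included, were above all controls.

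Of 12 genes that act in stalled-ribosome and nucleolar stress signalling, 5 were higher and 2 lower (41.7% and 16.7%), beside 32.1% and 22.5% of genes of at least 50 CPM, with a median of 0.10. USP10, a deubiquitinase that rescues small subunit proteins, went from 96.3 ± 5.77 to 122 ± 6.14 CPM, and HBS1L, a ribosome rescue factor, from 88.2 ± 5.30 to 111 ± 7.18 CPM. CDKN1A, the p53 target p21, went from 48.6 ± 2.27 to 38.4 ± 3.05 CPM, and MAP3K20, the kinase that senses collided ribosomes, from 102 ± 0.980 to 82.8 ± 1.88 CPM (SD, n = 3 each).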

How the data were processed

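RNA from 6 libraries, 3 control and 3 IGF2BP3, was analysed from a deposited table of read counts per gene and a deposited table of FPKM values. The submitters' processing notes name HISAT2, DESeq2 and GRCh38. For the counter, its strand setting and the annotation, no source used here gives a name. The authors' counts, as deposited, were whole numbers with no scaling. The authors' FPKM values, as deposited, were used for levels between genes and for an alternative test.

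Tests on the whole count table used edgeR 4.0.16 under R 4.3.3 (quasi-likelihood F test, TMM scaling, filterByExpr with a minimum count of 10 and a total of 15), leaving 17747 genes, with Benjamini-Hochberg adjustment over all of them and a threshold of 0.05. CPM are counts over TMM-scaled library sizes, and standard errors are the log2 fold change over the square root of F. Coordinates, lengths and GC content came from GENCODE on GRCh38, and gene starts from RefSeq. Paralogue ratios were tested by exact permutation (SciPy 1.17.1). DESeq2 1.42.0 and limma 3.58.1, the latter also on log2 FPKM plus 1 or 0.1, were alternatives. The script was tested on simulated data.

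The members and gene lists were chosen with earlier results of these data known. Genes named with a level in every library were the 6 highest and 6 lowest called members without overlap, the 3 highest FPKM of each subunit, the P stalk, RPL5 and RPL11, the paralogues and RPSA. For each other list, the 2 with the smallest p in each direction were named. Among genes that control TOP mRNAs, the others called higher and MTOR were named too. Some genes that these rules name are not reported here. The pairing of replicate numbers was checked.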

Additional observations from a re-analysis of the deposited data

How the results depend on the processing

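RPL22L1, RPL7L1 and RPS27L kept their call and direction under all 23 alternatives, while the count of called members did not. Without 1 library at a time, 10 to 43 members were higher and 1 to 2 lower, 7 to 28 and 0 to 1 of the large subunit, and 2 to 15 higher of the small. Without control replicate 1 and overexpression replicate 3 together, 53 were higher (33 large, 20 small), where 19.4% of all genes were, and RPSA turned positive. Over these leave-outs RPSA ran from −0.025 to 0.050 on the log2 scale. With the length and GC trend removed, 44 were higher and 1 lower (large 29 and 0, small 15 higher), the medians were 0.10 and 0.11 (large) while that of all genes moved from −0.01 to 0.04, and RPLP2 turned to 0.15. With upper quartile scaling, 8 were higher and 4 lower (large 7 and 3, small 1 higher). Limma on log2 FPKM plus 1 gave 28 higher and 1 lower (large lower 0, small higher 8, large median 0.11). With plus 0.1 these were 1 lower, 0, 8 and 0.11. No filter gave 33 higher (23 large, 10 small), and library totals alone 7 of the small subunit. At an adjusted p under 0.01, 8 were higher and 1 lower (large 7 and 0, small 1), and at a fold of at least 1.2, 2 and 1 (large 2 and 0, small 0). In DESeq2, 16 were higher and 2 lower, in limma-voom 19 and 2, and with readthrough loci summed, an alternative chosen after seeing the data as was the level of 50 CPM, 17 and 2. The causes were not tested.

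Libraries that share a replicate number deviated together by correlations of 0.09, −0.04 and 0.08. From 3 libraries per group, such values cannot decide whether a number marks a shared culture or batch. With the replicate number as a block, 16 were higher and 2 lower, without RPL22 and RPL5, and not every library correlated best with its own number. The groups of 3 limit every exact permutation p to 0.1, and low counts limit RPL3L, RPL10L and the RPS10 row most.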
